A study of Mus musculus with 4 samples.

Results

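Proteasome subunit genes were taken from the deposited count table by gene type and name, as protein-coding genes whose symbol is Psm followed by a letter from a to g and a number. The rule took 49 of the 13614 genes in the table. Psmb11, a subunit of the thymus, was the 1 annotated protein-coding gene of that name pattern outside the table and was not analysed here. By role the members fall into 15 genes of the core particle, 3 inducible catalytic subunits of the immunoproteasome, 17 genes of the regulatory particle, 6 other activators and inhibitors, and 7 assembly factors. The remaining gene, Psmc3ip, encodes a recombination factor that binds a proteasome ATPase and is not a subunit. RNA-seq counts came from mouse fetal liver cells of embryonic day 14.5 to 16.5. All cells had been infected with a retrovirus (MSCV) that carries GFP and MLL-AF9, a fusion oncogene found in acute leukemia, and were sorted for GFP. One group was Prl2+/+ (wild type) and the other Prl2-/- (knockout), with 2 libraries each, and the series calls these cells leukemia-initiating. The labels do not give the number of embryos or cultures behind a library, or the part of the gene that was deleted. The p-values therefore measure the spread between these libraries, which may be technical.

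The proteasome degrades proteins that carry ubiquitin chains. Its core particle is a barrel of alpha and beta rings, and the beta subunits encoded by Psmb5, Psmb6 and Psmb7 cut the substrate. The regulatory particle caps the barrel, where its ATPases unfold the substrate and its lid removes the ubiquitin. In cells of the immune system, and after interferon, Psmb8, Psmb9 and Psmb10 can take the places of Psmb5, Psmb6 and Psmb7, which changes the peptides made for MHC class I. In mammals the transcription factor NRF1, encoded by Nfe2l1, induces proteasome genes through antioxidant response elements when proteasome activity is low.

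Library totals lay between 14625725 and 15422309 counts. Ptp4a2, the gene of PRL2, was at 327 and 344 CPM (counts per 1000000 of the TMM-scaled library total) in the wild type and 5.82 and 6.87 CPM in the knockout, so each library matched its label. All 10 myeloid progenitor markers looked for were in the table, and 0 of 5 hepatocyte markers were. The progenitor markers summed to 4190 and 7745 CPM in the wild type and 4447 and 3134 CPM in the knockout. Of their log2 fold changes (knockout against wild type) 8 were negative and 2 positive, with a median of -0.22 and 0 called. In Mpo, Csf1r, Meis1 and Hoxa9 both knockout libraries lay below both wild type libraries, and in the others the groups overlapped. The part of these markers in the results was not tested. Of the erythroid markers 4 of 6 were in the table, with sums of 13.2 and 7.95 CPM in the wild type and 1.70 and 2.44 CPM in the knockout. Of B cell markers 1 of 4 was in the table, and of T and NK cell markers 1 of 5.

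The constitutive and the inducible proteasome differ in their catalytic subunits, so the 250 bases before the start of those genes are shown, from RefSeq on GRCm38.p6. The windows are chr14:54617996-54618245 (minus strand), chr11:70525107-70525356 (plus strand), chr17:34197945-34198194 (plus strand), chr17:34187331-34187580 (minus strand) and chr8:105938393-105938642 (minus strand), each written 5′ to 3′ on the strand of its gene. The deposited models of Psmb5, Psmb8, Psmb9 and Psmb10 begin further upstream than these starts. For Psmb8 and Psmb9 the whole window lies within the span of the deposited model, and for Psmb5 and Psmb10 a part of it. Psmb7 is named only.
Psmb5: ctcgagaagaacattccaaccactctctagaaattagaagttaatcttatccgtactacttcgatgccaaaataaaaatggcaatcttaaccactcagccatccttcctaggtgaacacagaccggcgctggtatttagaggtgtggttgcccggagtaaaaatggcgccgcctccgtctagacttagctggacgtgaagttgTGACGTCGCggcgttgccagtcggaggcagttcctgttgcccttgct
Psmb6: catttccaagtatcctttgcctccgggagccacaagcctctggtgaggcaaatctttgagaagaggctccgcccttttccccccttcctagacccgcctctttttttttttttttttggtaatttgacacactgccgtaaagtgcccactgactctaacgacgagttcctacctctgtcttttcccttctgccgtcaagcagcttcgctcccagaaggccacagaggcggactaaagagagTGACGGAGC
Psmb8: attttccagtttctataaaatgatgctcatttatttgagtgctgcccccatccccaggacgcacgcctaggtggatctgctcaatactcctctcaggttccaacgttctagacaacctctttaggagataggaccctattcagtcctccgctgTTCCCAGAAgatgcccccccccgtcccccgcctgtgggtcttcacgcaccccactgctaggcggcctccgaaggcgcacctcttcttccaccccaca
Psmb9: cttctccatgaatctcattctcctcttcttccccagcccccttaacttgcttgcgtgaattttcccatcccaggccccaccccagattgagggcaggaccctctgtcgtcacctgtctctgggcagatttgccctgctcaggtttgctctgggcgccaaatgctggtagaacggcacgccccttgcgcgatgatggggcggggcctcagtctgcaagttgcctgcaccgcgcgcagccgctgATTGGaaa
Psmb10: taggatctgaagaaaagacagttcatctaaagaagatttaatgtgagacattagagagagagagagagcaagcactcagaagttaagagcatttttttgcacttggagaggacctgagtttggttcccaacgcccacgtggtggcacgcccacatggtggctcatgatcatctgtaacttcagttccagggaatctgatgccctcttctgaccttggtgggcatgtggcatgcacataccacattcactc
Capitals mark matches on either strand to TGACNNNGC (an antioxidant response element), GAAA followed after 2 bases of any kind by GAAA (an interferon-stimulated response element), TTCNNNGAA (a gamma-activated site) and CCAAT (an NF-Y box). No matches overlapped in these 5 windows. The antioxidant element began 47 bases before the start of Psmb5 and 9 bases before that of Psmb6. The gamma-activated site began 97 bases before the start of Psmb8, and the CCAAT box, on the other strand, 8 bases before that of Psmb9. The 41 members with such a window have 44 windows, of which 5 held the antioxidant element (11.4%, against 10.2% of all 32851 windows) and 2 the gamma-activated site (4.55% against 7.02%). The interferon-stimulated element was in 3 (6.82% against 2.98%), and the CCAAT box in 14 (31.8% against 33.8%). These matches describe the letters of the windows and say nothing of binding.

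Levels of different genes were compared as CPM per kb of the deposited gene length, averaged over the 4 libraries. The highest was Psma6, an alpha ring subunit, at 155.3 CPM per kb, followed by the beta ring subunit Psmb4 at 132 and the alpha ring subunit Psma1 at 117 CPM per kb. The median level was 54.3 CPM per kb for the core, 59.4 for the immunoproteasome, 51.8 for the regulatory particle, 36.8 for the other activators and inhibitors and 24.2 for the assembly factors. These levels and their order depend on the length used. Per kb of the principal coding transcript, a choice made after seeing the data, Psma1 came first at 288, followed by Psma7 at 235, Psmb4 at 217.5 and Psma6 at 184 CPM per kb. The class medians were then 87.3, 99.8, 83.4, 51.4 and 30.9 CPM per kb in the order given. In the core the mRNA levels per kb of the deposited length ran down to 7.11 for Psma3 and 2.87 for Psma8, the alpha subunit of male germ cells. Per kb of the principal coding transcript the levels of Psma3 and Psma8 were 9.73 and 4.23 CPM per kb. Psma3 has 3 pseudogene copies that match its transcript at 95% identity or more over at least 200 bases. The 2 copies in the table held 38.0% of the reads of gene and copies together, so the level of Psma3 is uncertain.

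**Figure D1:**
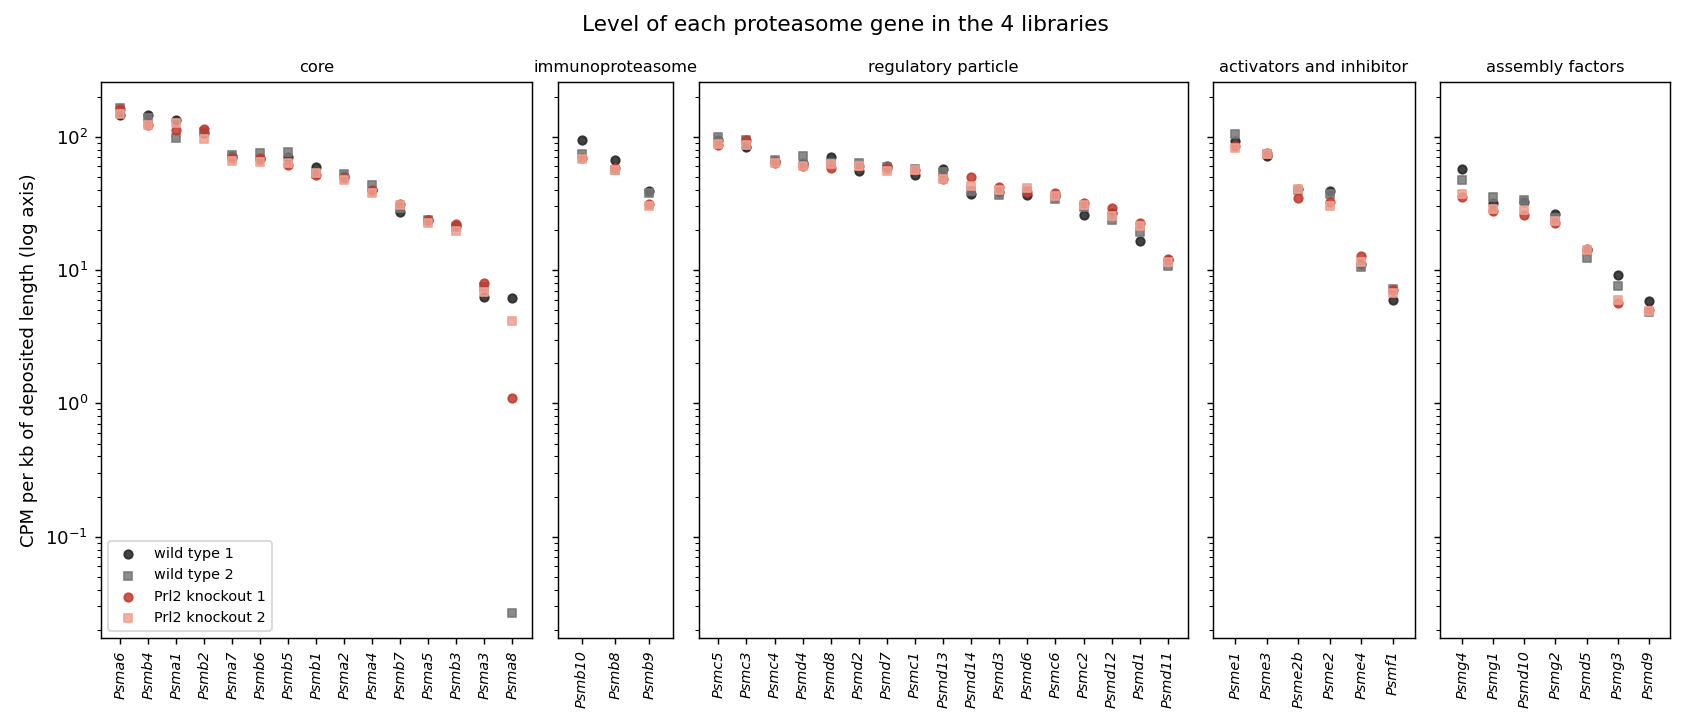
CPM per kb of deposited gene length (log axis) for each proteasome gene other than Psmc3ip, by class, in the 2 wild type libraries (black circle, grey square) and the 2 Prl2 knockout libraries (red circle, pink square). For most genes the 4 points lie close together. Psma8, at the right of the core panel, is the gene whose libraries lie farthest apart.

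Between libraries of 1 genotype the members differed little. The median absolute log2 difference was 0.117 between the wild type libraries and 0.069 between the knockout libraries, against 0.17 and 0.13 over the 9046 genes at a mean of 10 CPM or more. Those genes were not matched in level to the members, whose median was 126 CPM. Between the genotypes the median absolute log2 fold change was 0.115 over the members, close to the difference between the wild type libraries, and 0.156 over those genes. Psma8 stood apart, with 15.5 and 0.067 CPM in the wild type and 2.75 and 10.3 CPM in the knockout, from counts of 232, 1, 42 and 156. Each genotype held a high and a low library, and the groups overlapped. Dendritic cell markers, of which 5 of 6 were in the table, summed to 353 and 57.9 CPM in the wild type and 86.2 and 141 CPM in the knockout. Stromal markers (3 of 4 in the table) summed to 93.2 and 13.1 CPM in the wild type and 31.4 and 82.2 CPM in the knockout, and Pecam1, the 1 of 4 endothelial markers in the table, had 393 and 202 CPM against 207 and 309 CPM. The order of libraries was that of Psma8 for 3 of the 5 dendritic genes (Flt3, which made up most of the sum, Itgax and H2-Ab1). The same held for 1 of the 3 stromal genes (Pdgfrb, which made up most of the stromal sum) and for Pecam1. Cd74, Xcr1, Col1a1 and Col1a2 had other orders, and each lay at 2.29 CPM or less in every library. Among the 10 myeloid progenitor markers Cd34 had the order of Psma8 too, at 414 and 170.5 CPM in the wild type and 242 and 272 CPM in the knockout. The others of that list did not. The part of all these markers in the result was not tested. In bulk samples fewer cells of a type and less RNA per cell cannot be told apart.

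The comparison the design implies is knockout against wild type, which asks what differs in these cells without PRL2. Tested by edgeR's quasi-likelihood test over all 13614 genes, 0 of the 49 members passed an adjusted p of 0.05 in either direction. The whole table had 1 call, Ptp4a2 (0.00735% of genes). DESeq2 (background 0.718%), limma-voom (0.00735%), edgeR's likelihood ratio test (0.477%) and the authors' deposited table (0.477%) also called 0 members. The smallest adjusted p of a member in the authors' deposited table was 0.715, for Psmg4. The likelihood ratio test run here gave Psmg4 the same adjusted p, and both called 65 genes of the whole table. These 2 are therefore best read as 1 result. At an unadjusted p under 0.05 the quasi-likelihood test had 1 member higher in the knockout (background 5.66% of all genes) and 4 lower (background 4.23%). Of the members 29 had a negative and 20 a positive log2 fold change, and these 59.2% negative compare with 50.9% of all genes. The median log2 fold change was -0.072 over the members and -0.0059 over all genes. In 20 members the groups did not overlap with the knockout lower (40.8%, background 21.9%), and in 7 they did not overlap with the knockout higher (14.3%, background 22.2%).

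**Figure D2:**
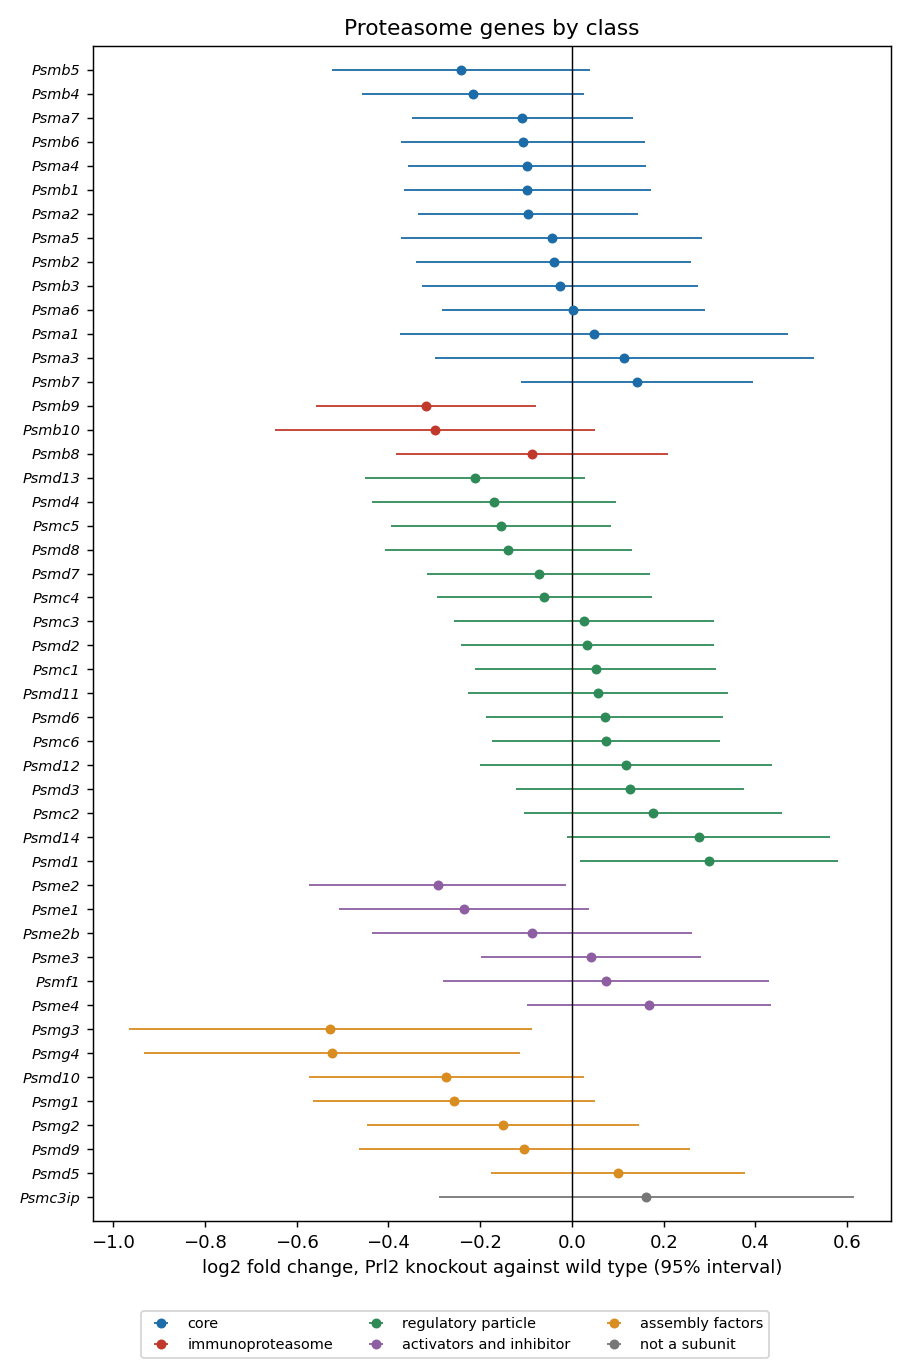
Log2 fold change of 48 proteasome genes in Prl2 knockout against wild type, with 95% intervals from edgeR's quasi-likelihood fit, by class (colours). Psma8, with an interval of -6.50 to 5.99, is left off to keep the scale. Intervals of Psmb9, Psme2, Psmg3 and Psmg4 lie below 0 and that of Psmd1 above 0, and 0 genes passed the adjusted threshold.

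Gene length went with the fold change. The members have a median deposited length of 2800 bp, against 3930 bp over all genes. Genes of any kind at 10 CPM or more had a median log2 fold change of -0.18 where the length was 1000 bp or less, and of 0.14 where it was above 8000 bp. Across the 49 members the correlation of log2 fold change with log2 length was 0.52 (Pearson) and 0.49 (Spearman), given as a description, since the members share the same 4 libraries. With each library's trend on gene length removed, the median log2 fold change of the members was 0.0022, with 24 negative and 25 positive. In that fit 0 members were called by the quasi-likelihood test, and at an unadjusted p under 0.05 there were 2 lower and 1 higher (backgrounds 3.66% and 4.15%).

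**Figure D3:**
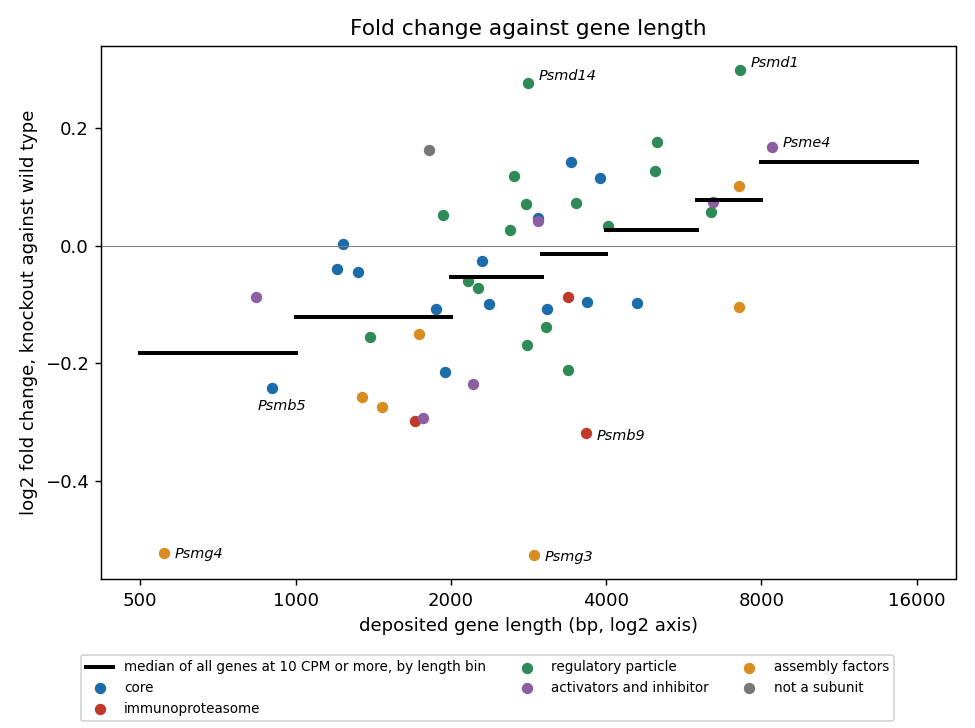
Log2 fold change in Prl2 knockout against wild type for 48 proteasome genes (points, coloured by class, without Psma8) against deposited gene length (log2 axis). Black bars, the median of all genes at 10 CPM or more in 7 length bins, climb from -0.18 to 0.14. Psmg4, the shortest member at 555 bp, and Psmd1, at 7265 bp, lie at -0.52 and 0.30.

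In the core particle 11 of 15 genes had a negative log2 fold change, with a median of -0.095, and 0 were called by edgeR's 2 tests, DESeq2 or limma-voom. At an unadjusted p under 0.05 there were 0 as well. All 4 non-catalytic beta subunits were negative, between -0.21 and -0.025, as were 5 of 8 alpha subunits. Psmb5, the subunit with chymotrypsin-like activity and the main target of bortezomib, had 63.7 and 69.0 CPM in the wild type and 54.8 and 57.5 CPM in the knockout. Both knockout libraries lay below the wild type, and the log2 fold change was -0.24 (SE 0.11, edgeR adjusted p = 0.537), or -0.12 with the length trend removed. With the reads of Gm3375, a pseudogene copy of Psmb5, added, the log2 ratio was -0.26. Psmb6, the subunit with caspase-like activity, had 128 and 142 CPM in the wild type and 129 and 121 CPM in the knockout, and the groups overlapped. Psmb7, with trypsin-like activity, stood the other way, at 92.6 and 99.9 CPM in the wild type and 107 and 106 CPM in the knockout. Its log2 fold change was 0.14 (95% interval -0.11 to 0.39), and 0.076 without wild type replicate 1. The median of the core was -0.047 without wild type replicate 2, -0.061 without Prl2 knockout replicate 2 and -0.020 with the length trend removed.

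All 3 inducible catalytic subunits had a negative log2 fold change, with a median of -0.30, and 0 were called by edgeR's 2 tests, DESeq2 or limma-voom. Psmb9 (ENSMUSG00000096727.3, chr17:34181987-34187764 in mm10, minus strand) and Psmb8 (ENSMUSG00000024338.15, chr17:34197721-34201454, plus strand) lie in the MHC region, on either side of Tap1. Psmb9 had 142 and 138 CPM in the wild type and 115 and 110.1 CPM in the knockout. The groups did not overlap, and Psmb9 had the smallest unadjusted p of the members, 0.0183, with a log2 fold change of -0.32 (SE 0.097, edgeR adjusted p = 0.474). Psmb10 had 162 and 127 CPM in the wild type and 118 and 117 CPM in the knockout, with a log2 fold change of -0.30 (SE 0.14, edgeR adjusted p = 0.537). Here wild type replicate 1 stood above the other 3 libraries, and without it the log2 fold change was -0.12. Without wild type replicate 2 it was -0.47. Psmb8 had 224 and 189.8 CPM in the wild type and 198 and 192 CPM in the knockout, and the groups overlapped. Without wild type replicate 1 its log2 fold change went from -0.087 to 0.026, and the median of the 3 genes was -0.12. With the length trend removed that median was -0.21, and the values were -0.30 for Psmb9, -0.21 for Psmb10 and -0.055 for Psmb8. Exons of other genes cover 5.79% of the exon length of Psmb9 (Tap1) and 14.7% of that of Psmb8 (Gm20496). Of the constitutive partners, 12.1% of Psmb5 (Mir686) and 11.8% of Psmb7 (Nek6) are covered. Psmb6 and Psmb10 have no such overlap. Whether counting used the strand is not given in the sources used here. Macrophage markers, of which 3 of 6 were in the table, summed to 312 and 362 CPM in the wild type and 722 and 992 CPM in the knockout. C1qa, C1qb and C1qc were not in the table. Adgre1 and Vcam1 had higher CPM in each knockout library than in each wild type library, while Cd163 stood the other way, at 1.47 and 1.28 CPM in the wild type and 1.24 and 1.06 CPM in the knockout. The part of these markers, and of the dendritic cell markers given above, in the values of the immunoproteasome was not tested.

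Each inducible subunit competes with a constitutive one for the same place in the ring, so the share of the inducible gene in the counts per kb of its pair was computed within each library. Psmb8 made up 48.3% and 42.2% of Psmb8 and Psmb5 in the wild type and 49.0% and 47.0% in the knockout. In Prl2 knockout replicate 1 the 95% Wilson interval, which covers counting error only, was 47.1% to 50.9%. Psmb9 made up 36.2% and 33.2% of Psmb9 and Psmb6 in the wild type and 31.2% and 31.7% in the knockout. Psmb10 made up 77.8% and 71.8% of Psmb10 and Psmb7 in the wild type and 68.9% and 68.9% in the knockout. For the latter 2 pairs both knockout libraries lay below both wild type libraries. The differences of the means, knockout minus wild type, were 2.72, -3.27 and -5.89 percentage points in this order. By a two-sided exact permutation test over the 4 libraries the p-values were 0.667, 0.333 and 0.333, and 0.667, 0.5 and 0.5 adjusted over the 3 pairs. The smallest p that 2 libraries against 2 can give is 0.333, so this permutation test cannot pass 0.05. Without wild type replicate 2 the difference for Psmb8 was -0.34 points, and without wild type replicate 1 it was 5.77 points. For Psmb9 and Psmb10 the differences without wild type replicate 1 were -1.75 and -2.90 points. The shares themselves depend on the length used: with counts not divided by length the wild type mean for Psmb8 was 75.6% in place of 45.3%.

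**Figure D4:**
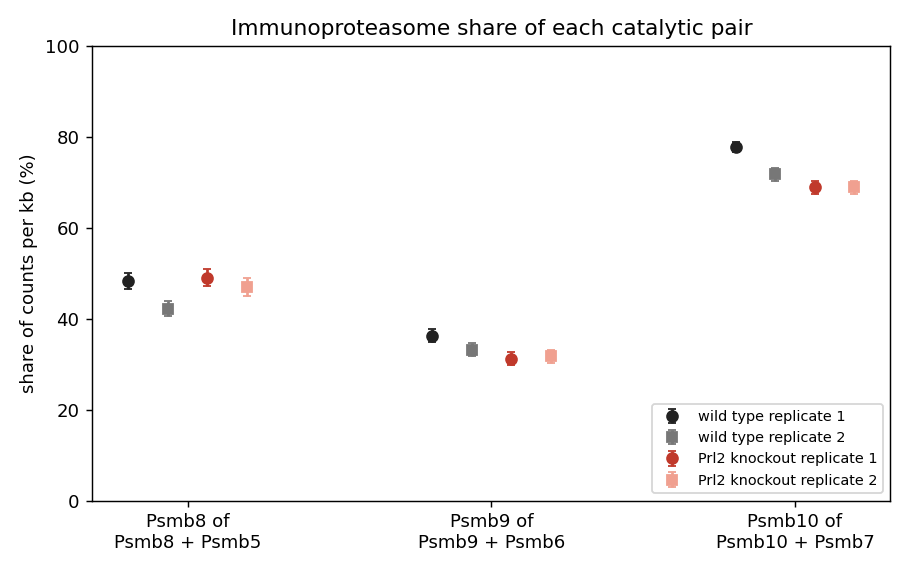
Share of the inducible gene in the counts per kb of its catalytic pair (percent, axis from 0 to 100) in the 2 wild type libraries (black, grey) and the 2 Prl2 knockout libraries (red, pink), with 95% Wilson intervals. Psmb9 and Psmb10 shares are lower in both knockout libraries than in both wild type libraries, and the Psmb8 shares overlap.

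The regulatory particle stood on the other side of 0. Of its 17 genes 11 had a positive log2 fold change, with a median of 0.052 and a range of -0.21 to 0.30, and 0 were called by edgeR's 2 tests, DESeq2 or limma-voom. At an unadjusted p under 0.05 there was 1 higher, Psmd1. Psmd1, a large scaffold of the base, had 121 and 139 CPM in the wild type and 164 and 156 CPM in the knockout. Its groups did not overlap, with a log2 fold change of 0.30 (SE 0.11, edgeR adjusted p = 0.494) that was 0.19 without wild type replicate 1. Psmd14, the enzyme of the lid that cuts off ubiquitin chains, had 105 and 110.4 CPM in the wild type and 139.9 and 121 CPM in the knockout, with a log2 fold change of 0.28 (SE 0.12, edgeR adjusted p = 0.516) that was 0.17 without Prl2 knockout replicate 1. Psmd13, a structural subunit of the lid, had the lowest value of the particle, with 192 and 183 CPM in the wild type and 162 and 162 CPM in the knockout. Its log2 fold change was -0.21 (SE 0.097, edgeR adjusted p = 0.534), and exons of Sirt3 cover 10.1% of its exon length. Of the 6 ATPases, 4 were positive and 2 negative, between -0.15 for Psmc5 (-0.054 with the length trend removed) and 0.18 for Psmc2 (0.065 without wild type replicate 1 and 0.28 without wild type replicate 2). Of the 8 lid genes 5 were positive. In 4 genes of the particle the groups did not overlap with the knockout higher (23.5%, background 22.2%) and in 6 with the knockout lower (35.3%, background 21.9%). The median of the particle was -0.033 without wild type replicate 1, 0.031 without wild type replicate 2, 0.022 without Prl2 knockout replicate 1 and 0.087 with the length trend removed.

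Other caps of the barrel gave 3 positive and 3 negative values, with 0 called by edgeR's 2 tests, DESeq2 or limma-voom and 1 lower at an unadjusted p under 0.05, Psme2. Psme1 and Psme2 encode the interferon-inducible activator that opens the core without ATP. Psme1 had 204 and 230.4 CPM in the wild type and 189 and 180.4 CPM in the knockout, and Psme2 had 69.6 and 66.0 CPM against 57.3 and 53.4 CPM. Both had no overlap of the groups, with log2 fold changes of -0.23 (SE 0.11, edgeR adjusted p = 0.535) and -0.29 (SE 0.11, edgeR adjusted p = 0.499). Without wild type replicate 2 that of Psme1 was -0.15. With the length trend removed the values were -0.16 for Psme1 and -0.20 for Psme2. Psme2b, an intronless copy on another chromosome, matches the Psme2 transcript at 99.4% over 794 bases, so reads of the pair cannot be assigned with certainty. Summed, the pair had 103 and 99.2 CPM in the wild type and 86.6 and 87.0 CPM in the knockout, a log2 ratio of -0.22. Psme4, which encodes the large single-chain activator of the core, had 92.7 and 88.8 CPM in the wild type and 107 and 96.9 CPM in the knockout, a log2 fold change of 0.17 (SE 0.11). It was 0.095 without Prl2 knockout replicate 1 and 0.067 with the length trend removed. Psmf1, an inhibitor of the core in vitro, had a log2 fold change of 0.074, which was -0.072 without wild type replicate 1. For Psme3, a nuclear activator, it was 0.041, with a range of 0.0061 to 0.060 over the fits that left out 1 library. In 2 of the 6 genes the groups did not overlap with the knockout lower (33.3%, background 21.9%). In 2, Psme3 and Psme4, they did not overlap with the knockout higher (33.3%, background 22.2%). The median of the 6 genes was -0.023. It was -0.080 without wild type replicate 1, 0.018 without Prl2 knockout replicate 1, -0.068 without Prl2 knockout replicate 2 and 0.020 with the length trend removed.

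In the assembly factors the class median was also negative. Of the 7 genes 6 were negative, with a median log2 fold change of -0.26, and 0 were called by edgeR's 2 tests, DESeq2 or limma-voom, with 2 lower at an unadjusted p under 0.05 (background 4.23%). The chaperones of the alpha ring, Psmg1 to Psmg4, were all 4 negative, from -0.53 to -0.15. Psmg3 (ENSMUSG00000029551.13, chr5:139823592-139826885 in mm10) had 26.6 and 21.95 CPM in the wild type and 16.5 and 17.2 CPM in the knockout. Psmg4 (ENSMUSG00000071451.10, chr13:34162964-34178173) had 31.6 and 26.3 CPM in the wild type and 19.6 and 20.7 CPM in the knockout. In both genes the knockout libraries lay below the wild type libraries. Their proteins form a heterodimer that helps build the alpha ring. Exons of Gm26938 cover 9.68% of the exon length of Psmg3. The log2 fold changes were -0.53 (SE 0.18, edgeR adjusted p = 0.476) for Psmg3 and -0.52 (SE 0.17, edgeR adjusted p = 0.474) for Psmg4. With the length trend removed they were -0.48 and -0.38, and over the fits that left out 1 library they ran from -0.66 to -0.39 and from -0.65 to -0.40. Psmd5, a chaperone of the regulatory base, was the 1 positive gene, with 102 and 89.3 CPM in the wild type and 103 and 102 CPM in the knockout, and the groups overlapped. Psmd10, the base chaperone gankyrin, had a log2 fold change of -0.27 (SE 0.12), or -0.18 with the length trend removed. Psmc3ip, the gene that is not a subunit, had 18.6 and 18.9 CPM in the wild type and 23.2 and 18.7 CPM in the knockout. Its log2 fold change of 0.16 was -0.0026 without Prl2 knockout replicate 1.

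Genes that work with the proteasome but have other names were read beside the members. Of 12 names of subunits and partners, 1 of them an older symbol, 11 were in the table, 8 with a negative and 3 with a positive log2 fold change, and 0 were called by the quasi-likelihood test, with 0 at an unadjusted p under 0.05. Pomp, the chaperone that completes the core, had the smallest p of them, with 174 and 171 CPM in the wild type and 152 and 146 CPM in the knockout (log2 fold change -0.21, SE 0.096, edgeR adjusted p = 0.534). The 8 genes of the NRF1 axis in the table were 4 positive and 4 negative, and Nfe2l1 itself had 146 and 154 CPM in the wild type and 168 and 165 CPM in the knockout (log2 fold change 0.15, SE 0.097, edgeR adjusted p = 0.633), with a log2 fold change of 0.098 without wild type replicate 1. Among 11 ubiquitin and shuttle genes 6 were positive. Rps27a, which encodes ubiquitin fused to a ribosomal protein, had 24.2 and 24.2 CPM in the wild type and 14.5 and 15.8 CPM in the knockout (log2 fold change -0.68, SE 0.16, edgeR adjusted p = 0.474). Of 8 genes regulated together with the immunoproteasome all 8 were negative, with a median of -0.19 and 0 called. Nlrc5, the transactivator of MHC class I genes, had the smallest p of these 8, with 5.75 and 4.31 CPM in the wild type and 3.01 and 2.84 CPM in the knockout (log2 fold change -0.78, SE 0.32, edgeR adjusted p = 0.505). Tap1, the peptide transporter subunit between Psmb8 and Psmb9, had 145 and 127 CPM in the wild type and 115.5 and 123 CPM in the knockout. In the ubiquitin and the immunoproteasome list 1 gene each lay lower at an unadjusted p under 0.05, where the background was 4.23% of all genes.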

How the data were processed

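The authors deposited 1 table of whole-number read counts per gene for the 4 libraries. The submitters' processing notes name featureCounts, STAR, Bowtie2 and mm10, without version, role or strand setting. The table also holds, per the file headers, log2 CPM, log2 RPKM, log2 fold changes, p-values, adjusted p-values and a gene length. That length equals the union of exons in GENCODE M21 for all 49 members. The lowest total of any gene was 23 counts, so rarer genes were not analysed here.

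The counts went into edgeR 4.0.16 under R 4.3.3 (quasi-likelihood test, robust, TMM factors, filterByExpr, genotype as the single term, two-sided) over all genes with Benjamini-Hochberg adjustment, and called at 0.05 or less. The procedure was tested on simulated counts with the same spread (dispersion) for every gene and no length trend. These data do have a length trend, so that test does not show how the procedure behaves on them. Standard errors are log2 fold changes over the square root of F. Alternatives were RLE factors, a filter at a mean of 1 CPM, DESeq2 1.42.0, voom of limma 3.58.1, the likelihood ratio test, a replicate block, each library left out, and an offset for each library's loess trend on log2 length. Near-identical copies came from BLAST 2.17.0 on GENCODE transcripts. RefSeq promoters (GRCm38.p6) matched 41 members. Values in every library are given for called members, both genes of each catalytic pair, the highest and the lowest log2 fold change of each class, up to 8 members with the smallest unadjusted p under 0.05, and the PA28 subunits Psme1 and Psme2. Of each list of genes that work with the proteasome they are given for called genes or else the one with the smallest p. For the cell type markers sums are given, and the single markers printed, such as Cd34 and Cd163, were not picked by that rule. Psmd14, Tap1 and the Psme2 and Psme2b sum were added after their values were seen. The members and lists were chosen with earlier results of these data known.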

Additional observations from a re-analysis of the deposited data

How the results depend on the processing

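The count of 0 called members, higher or lower, was the same in every alternative run with 2 libraries a group, including the replicate block. These runs called at most 0.718% of the genes tested (DESeq2), and 0.00735% with the replicate block or the length trend removed. Since so few genes of any kind were called, the count of 0 says little about the members. The median log2 fold change of the members was 0.0022 with the length trend removed and -0.088 to -0.057 over the fits that left out 1 library, against -0.072. For the classes, the medians with the length trend removed were -0.020 (core), -0.21 (immunoproteasome), 0.087 (regulatory particle), 0.020 (other activators and inhibitors) and -0.18 (assembly factors). The core median was -0.045 by limma-voom and -0.045 with the replicate block. Over the fits that left out 1 library the medians ran from -0.11 to -0.047 (core), -0.35 to -0.12 (immunoproteasome), -0.033 to 0.050 (regulatory particle), -0.080 to 0.018 (other activators and inhibitors) and -0.30 to -0.21 (assembly factors). Psma8 had a log2 fold change of 2.09 by limma-voom and 0.94 with the replicate block, against -0.26, and -1.501 to 6.425 with 1 library left out. The ranges were -0.21 to 0.026 for Psmb8, -0.072 to 0.22 for Psmf1 and -0.0026 to 0.31 for Psmc3ip.

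The wild type shares of Psmb8, Psmb9 and Psmb10 in their pairs were 75.6%, 51.0% and 59.8% without division by length. They were 63.2%, 38.0% and 56.8% with the length of the principal coding transcript, a choice made after seeing the data, and 41.2% for Psmb8 with the copy of Psmb5 added, also chosen after seeing the data. Summed over the 3 pairs the share was 51.3%, with a difference of -1.85 points. Same-numbered libraries deviated from their group means with a correlation of -0.14 over all genes. The labels say no more than the number, so whether same-numbered libraries were paired is not known. The replicate block gave 28 negative and 21 positive members. Precision is limited by 2 libraries a group: for Psmb7 the 95% interval of the log2 fold change was -0.11 to 0.39. The cause of the other shifts was not tested.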
